A study of Mus musculus with 25 samples.

Results

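The 10 genes described here were grouped as genes of the fast-twitch muscle fibre and were followed in gastrocnemius. The group holds the thin-filament genes Tnnt3, Tnni2, Tnnc2 and Tpm1, the myosin light chain gene Mylpf, the Z-disc genes Actn3 and Myoz1, and the calcium-handling genes Atp2a1, Pvalb and Casq1. Whether each of these genes is limited to fast fibres was not tested. They were taken by name, and all 10 had a row among the 8829 gene symbols of the deposited table. The muscles came from 25 male SAMP8 mice, an inbred line with accelerated senescence, so that strain and sex were the same in both groups. Of these mice, 11 had received vehicle (Control) and 14 had received thymol at 20 mg/kg of body weight on each day of dosing (Thymol), in both cases from the age of 8 months and for 3 months by the labels. The study's methods give oral gavage, with thymol in corn oil, on most but not all days of the week. Each mouse gave 1 library of QuantSeq 3′ mRNA tags. The method reads the end of each polyadenylated transcript, so by design the count of a gene does not grow with transcript length. How many tags a transcript of each gene yields was not measured. Levels, ratios and shares of different genes are therefore compared as tags and not as amounts of transcript. The study asked how long-term thymol affects aging muscle, and the comparison here asks whether the mRNA of the fast contractile and calcium apparatus differed between the groups and how it varied from mouse to mouse.

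A muscle fibre shortens when calcium released from the sarcoplasmic reticulum binds troponin C, troponin I and troponin T then let tropomyosin move on the actin filament, and myosin heads pull. Fast and slow fibres build this machinery from different genes of the same families, and fast fibres also clear calcium with their own pump (Atp2a1, also called SERCA1) and with the soluble buffer parvalbumin (Pvalb). Mouse gastrocnemius consists largely of fast fibres, many of them of the kind that carries the Myh4 myosin, with a smaller oxidative zone that holds the slow ones.

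Values are log2 CPM, tags scaled to a common library size. Reads on the genes of the table ranged from 4463818 to 9463418 per mouse (median 7503259, with medians of 7554333 in Control and 7479077 in Thymol). The 10 genes together took from 10.1% to 13.6% of these reads (median 12.1%), and the lowest count of any of them in any mouse was 5951 reads (Casq1). At such depth the counting error is small beside the spread between mice. Checked against the tissue label, all 8 myofibre markers were measured, with a summed level from 82707 to 108673 CPM per mouse, against a highest sum of 2409 CPM for adipocyte, 3821 CPM for fibroblast and 434 CPM for leukocyte markers. The satellite cell genes Pax7, Myf5 and Calcr and the leukocyte genes Ptprc and Adgre1 had no row. Mice are named by group and by the last number of their label, and the libraries of Control 18, Control 19 and Thymol 20, which stood apart in earlier results of these data, were kept, with values without them given where they matter.

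All 10 genes were among the 57 most abundant of the table. Tpm1 stood highest (mean 14.57 log2 CPM, rank 8), followed by Tnnc2 (14.51), Tnnt3 (14.25), Tnni2 (13.66), Mylpf (13.53), Pvalb (13.39) and Atp2a1 (13.38), with Actn3 (10.97), Myoz1 (10.54) and Casq1 (10.06, rank 57) well below. The step from Atp2a1 down to Actn3 was 2.41 ± 0.16 on the log2 scale (SD over 25 mice) and was seen in 25 of 25 mice. The steps from Tnnc2 to Tnnt3, from Tnnt3 to Tnni2, from Actn3 to Myoz1 and from Myoz1 to Casq1 also held in every mouse. By contrast, Tpm1 and Tnnc2 differed by 0.06 ± 0.11 and were in this order in 18 mice, Tnni2 and Mylpf by 0.13 ± 0.17 (19 mice), Mylpf and Pvalb by 0.14 ± 0.14 (21 mice), and Pvalb and Atp2a1 by 0.01 ± 0.17 (15 mice). These 4 neighbours did not differ beyond 1 SD of their difference.

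**Figure D1:**
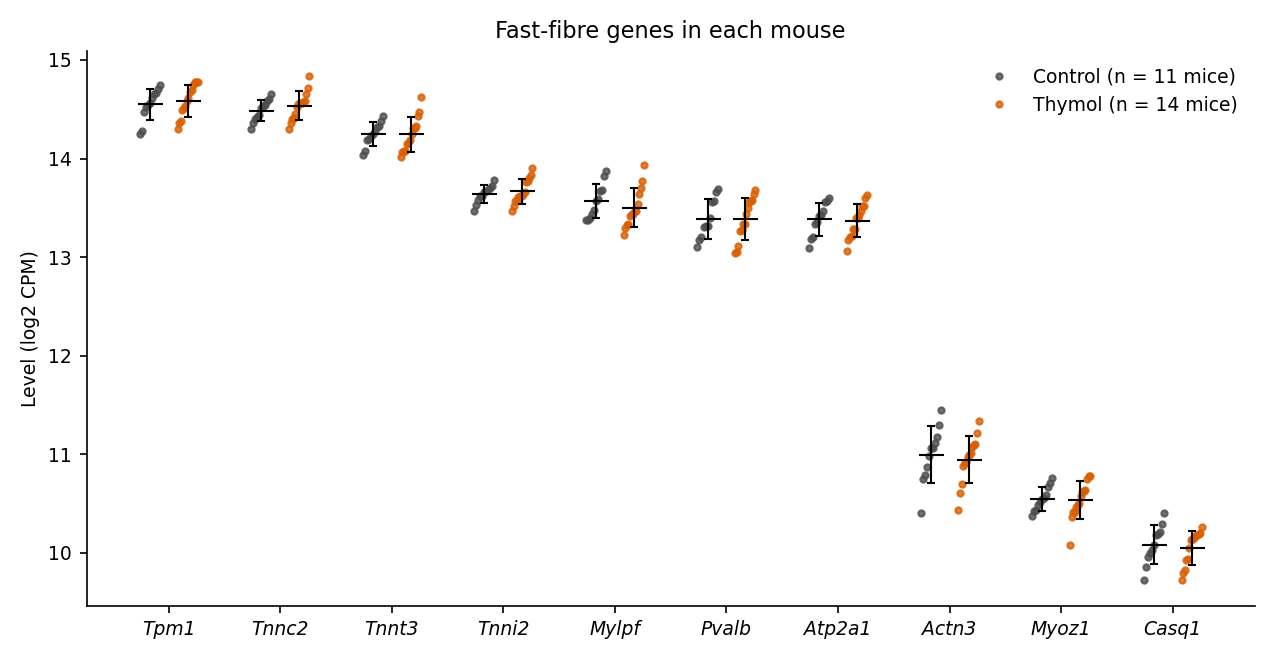
Level of each of the 10 genes (vertical axis, log2 CPM) in every mouse, with Control in grey (11 mice) and Thymol in orange (14 mice), points ordered by value within a group, and bars for the mean ± SD. Tpm1 to Atp2a1 lie between 13.04 and 14.84 and Actn3, Myoz1 and Casq1 between 9.72 and 11.45, and the groups overlap in every gene.

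The troponin complex is made of 3 subunits, of which troponin T (Tnnt3) binds tropomyosin, troponin I (Tnni2) inhibits the actomyosin ATPase and troponin C (Tnnc2) binds calcium. Tnnt3 ranged from 14.04 to 14.43 in Control (median 14.24) and from 14.01 to 14.63 in Thymol (median 14.22), on the log2 CPM scale. Tnni2 ranged from 13.47 to 13.78 in Control (median 13.66) and from 13.47 to 13.90 in Thymol (median 13.63). Tnnc2 went from 14.30 to 14.65 in Control (median 14.52) and from 14.30 to 14.84 in Thymol (median 14.56). The groups overlapped in all 3 subunits, and Thymol 6 was the lowest Thymol mouse in each of them, while Thymol 3 was highest for Tnnt3 and Tnni2 and Thymol 26 for Tnnc2. The proportions of the subunits varied to different degrees. The ratio of Tnnt3 to Tnni2 tags lay between 1.37 and 1.64 in Control and between 1.33 and 1.65 in Thymol, and its within-group SD, 0.08 on the log2 scale, was smaller than that of either gene (0.16 for Tnnt3 and 0.11 for Tnni2). For Tnnc2 over Tnni2 the ratio lay between 1.61 and 2.19 in Control and between 1.73 and 2.01 in Thymol, the highest being that of Control 18. The ratio of Tnnc2 to Tnnt3 was looser, from 1.05 to 1.48 in Control and from 1.06 to 1.44 in Thymol, with a within-group SD of 0.13 on the log2 scale, close to that of Tnnc2 itself.

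Tropomyosin 1 (Tpm1) lies along the actin filament, and Mylpf is the regulatory light chain of fast myosin. Tpm1 ran from 14.25 to 14.75 log2 CPM in Control (median 14.57) and from 14.30 to 14.78 in Thymol (median 14.60). Mylpf ran from 13.37 to 13.87 in Control (median 13.57) and from 13.22 to 13.93 in Thymol (median 13.45). Mylpf was the gene in which most Thymol mice (5 of 14) fell outside the Control range, and also the one with the fewest Thymol mice above the Control median (4 of 14). Of these 5 mice, Thymol 20 (13.93) lay above the range. Thymol 6 (13.22), Thymol 24 (13.29), Thymol 22 (13.32) and Thymol 30 (13.34) lay below it.

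Actn3, the alpha-actinin of fast fibres, and Myoz1, a Z-disc protein that binds alpha-actinin and calcineurin, anchor the thin filaments at the Z-disc. Actn3 was the most variable of the 10 genes, from 10.40 to 11.45 log2 CPM in Control (median 11.06) and from 10.44 to 11.33 in Thymol (median 10.98). Its lowest and highest values in all 25 mice both belonged to Control mice, Control 14 and Control 19, and no Thymol mouse fell outside the Control range. Myoz1 ran from 10.37 to 10.76 in Control (median 10.54) and from 10.08 to 10.78 in Thymol (median 10.54), and the low end in Thymol was Thymol 6.

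Atp2a1 pumps calcium back into the sarcoplasmic reticulum, Casq1 (calsequestrin 1) stores it there, and Pvalb buffers it in the cytosol. Atp2a1 ranged from 13.09 to 13.60 log2 CPM in Control (median 13.42) and from 13.06 to 13.63 in Thymol (median 13.40). Pvalb ranged from 13.10 to 13.69 in Control (median 13.31) and from 13.04 to 13.68 in Thymol (median 13.39). Casq1 ranged from 9.72 to 10.40 in Control (median 10.07) and from 9.73 to 10.26 in Thymol (median 10.13). The 3 genes overlapped almost fully between the groups, with 3, 2 and 0 of 14 Thymol mice outside the Control range for Atp2a1, Pvalb and Casq1. Tags of Atp2a1 outnumbered those of Casq1 by 7.53 to 13.04 times in Control and by 8.48 to 11.02 times in Thymol, and both Control extremes were mice named above, Control 18 at the low and Control 19 at the high end.

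None of the 10 genes passed the test of Thymol against Control. In limma with Benjamini-Hochberg adjustment over 8829 genes, 0 of 10 were called at an adjusted p under 0.05, beside 0 of 8829 genes in all (0%), and 0 of 10 had an unadjusted p under 0.05, beside 312 genes in all (3.53%, 162 higher and 150 lower in Thymol). With voom on the recovered reads, 304 genes had an unadjusted p under 0.05, and again 0 were called. The difference, Thymol minus Control, ran from −0.07 for Mylpf to 0.05 for Tnnc2 on the log2 scale, with a median of −0.009 over the 10 genes and −0.001 over all genes. By their means 4 genes were higher and 6 lower in Thymol, and between 4 and 9 of the 14 Thymol mice lay above the Control median.

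The gene with the smallest p was Mylpf, with 13.57 ± 0.18 in Control (SD, n = 11) and 13.50 ± 0.20 in Thymol (SD, n = 14), a difference of −0.07 with a standard error of 0.08 (limma, unadjusted p = 0.38). For Tnnc2 the means were 14.49 ± 0.11 and 14.54 ± 0.14, a difference of 0.05 with a standard error of 0.07 (limma, unadjusted p = 0.456). The adjusted p of every one of the 10 genes was 0.9999 (limma, Benjamini-Hochberg). Standard errors ran from 0.06 (Tnni2) to 0.10 (Actn3), and the 95% intervals of the ratio Thymol over Control lay within 0.841 (lower end for Actn3) and 1.14 (upper end for Tpm1). Differences within these intervals are not excluded by these data. The intervals do not give the smallest difference that the adjusted test could have called. Bulk muscle was measured, so fewer fibres of a type and less mRNA per fibre cannot be told apart. The p-values set each difference against the spread between these mice, which limma moderates by the trend over all genes.

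**Figure D2:**
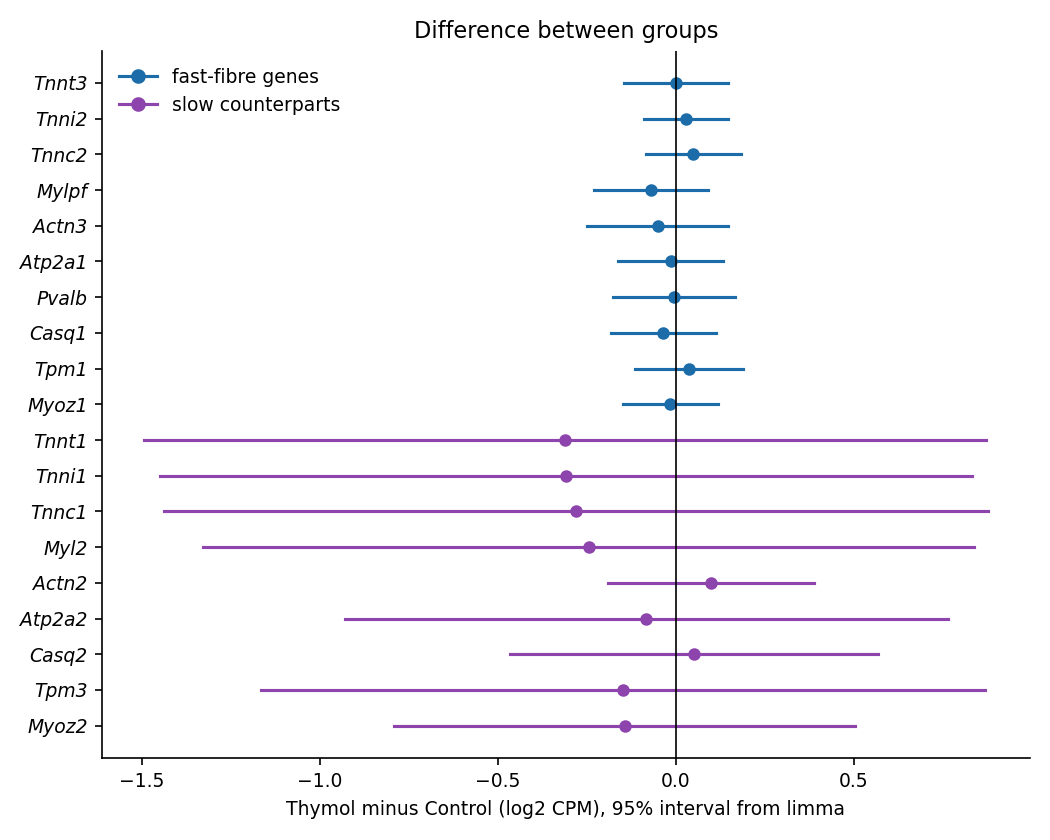
Difference between group means, Thymol minus Control (horizontal axis, log2 CPM), with 95% intervals from limma for the 10 fast-fibre genes (blue) and the 9 slow counterparts (purple). Every interval includes 0, and those of the slow genes, up to −1.49 to 0.87 for Tnnt1, are wider than those of the fast genes, except that Actn2 comes close to them.

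The other genes of the same machinery were described by lists drawn up for fast and shared sarcomere genes, calcium release and storage, slow fibres and fibre-type regulators, and 0 genes of any list were called in limma, with 0 at an unadjusted p under 0.05. Among 30 fast and shared sarcomere genes, 17 were higher and 13 lower in Thymol, with a median difference of 0.02. The 2 with the smallest p were Xirp2, an actin-binding protein of the myotendinous junction and intercalated disc (0.17, standard error 0.09, limma unadjusted p = 0.0762), and Tmod1, which caps the pointed end of actin filaments (0.12, standard error 0.07, limma unadjusted p = 0.088). On the lower side stood Pdlim3 (−0.09) and Mybpc1, slow myosin-binding protein C (−0.10). Of 28 measured calcium genes, 15 were higher and 13 lower, with a median of 0.002. Their differences ran from −0.18 to 0.06, and the named ones were Srl (sarcalumenin, 0.06), Jsrp1 (0.04), Stac3, a partner of the calcium channel of the T-tubule (−0.12), and Asph (−0.10). Trim72 and Pln had no row. Of 26 measured regulators, 11 were higher and 15 lower, with a median of −0.02, and the named ones were Ppargc1b (0.21), Eya1 (0.12) and Mef2d (−0.08). Slow-fibre genes had the largest median, −0.15 over 13 measured genes (4 higher and 9 lower), the named ones being Actn2 (0.10), Myoz3 (0.03), Myh7 (−0.40) and Tnni1 (−0.31). That median turned to 0.12 without Thymol 20 and to 0.20 when the first label number entered the model as a block.

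The 10 genes were steady from mouse to mouse. The within-group SD ran from 0.11 (Tnni2) to 0.26 (Actn3) on the log2 scale, beside a median of 0.28 over all genes and of 0.18 over the 60 most abundant genes. Tnni2 lay at the 1.42nd percentile of all genes for this SD, Tnnc2 at the 4.35th, Tnnt3 at the 10.6th, Pvalb at the 29.1st and Actn3 at the 45.6th. The highest CPM of a gene was between 1.35 times (Tnni2) and 2.07 times (Actn3) its lowest. Against the median of these abundant genes, Tnni2, Tnnc2, Tnnt3, Myoz1, Tpm1 and Atp2a1 lay below and Mylpf (0.19), Casq1 (0.19), Pvalb (0.21) and Actn3 above.

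What variation there was ran in the same direction in many mice. In Thymol 6 all 10 genes were below their own means, by 0.18 to 0.53, with a mean deviation of −0.31, and this mouse was the lowest of all 25 in 5 of the genes. Control 14 followed with a mean deviation of −0.24 and was lowest in 3 genes. At the other end stood Thymol 3 (0.20), Thymol 26 (0.18), Control 23 (0.17), Thymol 9 (0.17) and Control 31 (0.16), in each of which all 10 genes were above their means. All 10 genes were above in 2 Control and 3 Thymol mice and below in 2 Control and 3 Thymol mice. Other mice were mixed. In Control 19, Actn3 was 0.48 above its mean, the highest of all mice, while Pvalb was 0.28 below, and in Thymol 20 Mylpf was 0.40 above while Atp2a1 was 0.09 below. The mean deviation of the 10 genes was 0.004 ± 0.12 in Control (SD, n = 11) and −0.003 ± 0.16 in Thymol (SD, n = 14).

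**Figure D3:**
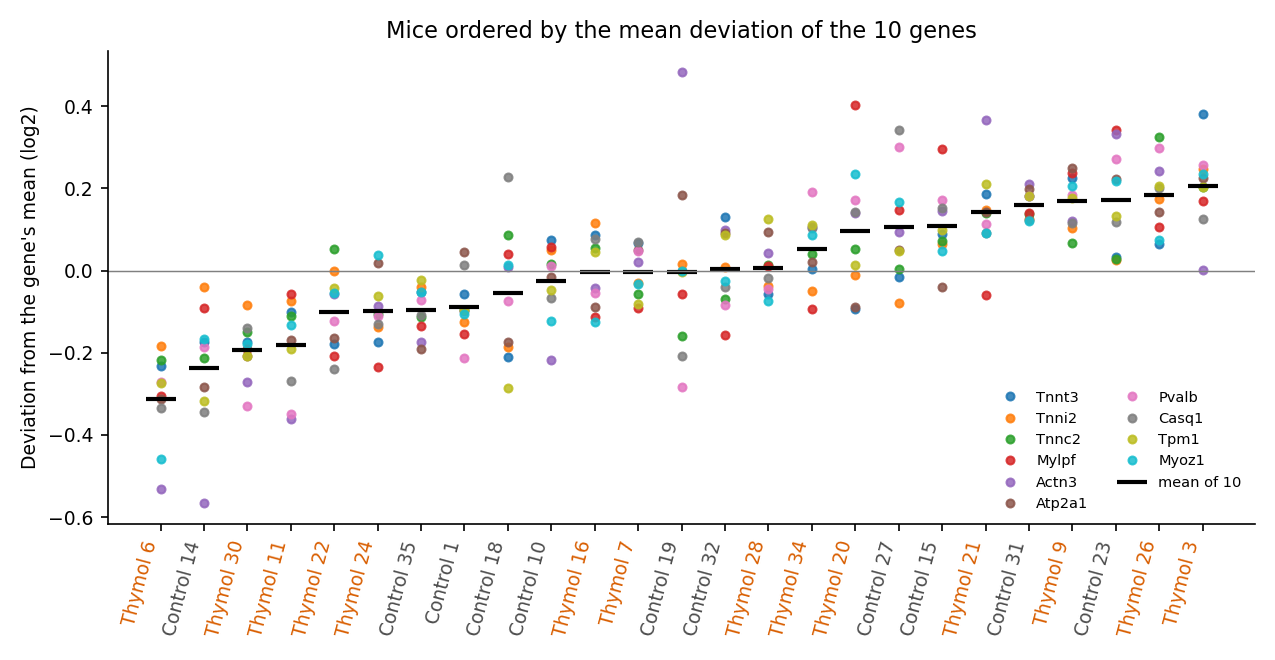
Deviation of each of the 10 genes from its mean over all mice (vertical axis, log2), for the 25 mice ordered from left to right by the mean of the 10 (black bar), with Control names in grey and Thymol names in orange. The mean runs from −0.31 (Thymol 6) to 0.20 (Thymol 3), and mice of both groups are found at both ends.

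The co-variation was measured as the correlation across the 25 mice after the group means had been removed. Pearson r was above 0 in all 45 pairs of the 10 genes, from 0.37 to 0.87 with a median of 0.63, and Spearman rho ran from 0.33 to 0.83. The median r of a gene to the other 9 was lowest for Mylpf (0.54) and highest for Tpm1 (0.76), whereas its median r to all 8828 other genes lay close to 0 for each of the 10, between −0.006 (Myoz1) and 0.005 (Actn3). Leaving out the 2 mice farthest from the median of the first gene left a median r of 0.59. Within Control the median was 0.48 (lowest −0.16, for Tnni2 with Casq1) and within Thymol 0.77 (lowest 0.54). The difference between the groups was not tested. Without Control 18, Control 19 and Thymol 20 the median over both groups was 0.76. The pattern was lost under quantile normalization (median 0.05, lowest −0.47, 19 of the 36 pairs it leaves above 0). That setting leaves several of these abundant genes only a few distinct values, so it cannot decide whether they vary together. The pattern was also lost when the summed level of myofibre markers, which include the fast myosin gene Myh4, was added to the treatment term (median 0.09, lowest −0.44, 29 of 45 above 0).

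The closest pair was Tnnt3 and Tnni2 (r = 0.87, rho = 0.83, permutation p = 1e-05 for both, the smallest that 100000 permutations can give, and r = 0.80 without Thymol 3 and Thymol 6). No other gene of the table was more alike to either of them. The other troponin pairs were looser, with r = 0.70 for Tnni2 and Tnnc2 (rho = 0.68, permutation p = 0.00025 and 0.0004, r = 0.59 without 2 mice) and r = 0.61 for Tnnt3 and Tnnc2 (rho = 0.62, permutation p = 0.00224 and 0.00152, r = 0.49 without 2 mice). Within Control the r of Tnni2 and Tnnc2 was 0.24 and within Thymol 0.89. Beside these values, Tnnc2 had r = 0.79 to Pvalb and 0.77 to Casq1 among the calcium genes. Differences between correlations were not tested.

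Among the calcium genes, Pvalb and Casq1 each had the other as its nearest gene in the whole table (r = 0.83, rho = 0.83). The pump stood further off, with r = 0.61 between Atp2a1 and Pvalb (rho = 0.61, permutation p = 0.00198 for both, r = 0.54 without 2 mice) and r = 0.55 between Atp2a1 and Casq1 (rho = 0.47, permutation p = 0.00623 and 0.0207, r = 0.35 without Thymol 6 and Control 14). Its nearest among the 10 was instead Tpm1 (r = 0.84, rho = 0.81). Actn3 and Myoz1 of the Z-disc had r = 0.73 (rho = 0.76, permutation p = 0.00005 and 0.00001, r = 0.62 without 2 mice), and Mylpf and Tpm1 had r = 0.54 (rho = 0.57, permutation p = 0.00628 and 0.00414, r = 0.61 without 2 mice). The loosest pair was Tnni2 and Casq1 (r = 0.37, rho = 0.33, permutation p = 0.0664 and 0.115, r = 0.27 without 2 mice). In a principal component analysis of the 10 genes, scaled to equal variance, the first component held 69.1% of the variance with all loadings of the same sign. The second held 10.8% and set Tnnt3, Tnni2, Atp2a1 and Tpm1 on one side and Casq1, Mylpf, Pvalb, Myoz1 and, weakly, Tnnc2 on the other, with Actn3 near 0.

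**Figure D4:**
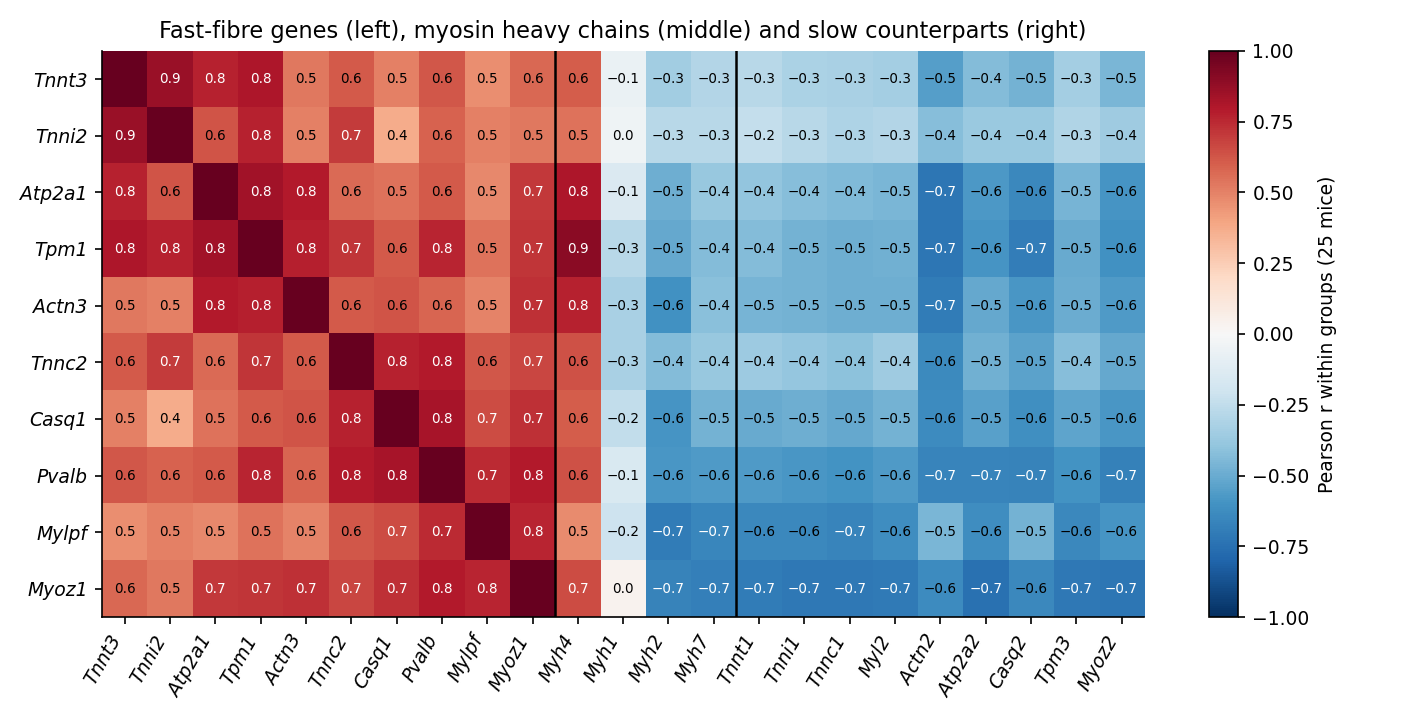
Pearson r across the 25 mice with group means removed (colour and number in each cell), between the 10 fast-fibre genes (rows) and, from left to right, the same 10 genes, 4 myosin heavy chains and the 9 slow counterparts. All cells between different fast-fibre genes are positive (0.37 to 0.87), as are those of Myh4, and the cells of Myh2, Myh7 and the slow counterparts are negative.

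Each of the 10 genes was also used as a predictor of every other gene in limma, with treatment in the model and Benjamini-Hochberg adjustment over 8828 genes. Of the other 9, 8 rose with Tpm1, against 1.7% of all genes, 6 with Myoz1 (1.36%), 5 with Pvalb (0.816%), 4 with Atp2a1 (1.11%) and 4 with Actn3 (0.782%). Another 2 rose with Tnnt3 (0.125%), 2 with Tnnc2 (0.034%) and 2 with Mylpf (0.181%), and 1 with Casq1 (0.0906%). With Tnni2, 0 of 9 and 0% of all genes were called, and 0% were called in the falling direction, although its r to Tnnt3 was the highest of all (adjusted p = 0.136 in limma). The 2 calls with Tnnt3 were Atp2a1 and Tpm1, at an adjusted p of 0.0494 each.

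The genes that followed each of the 10 most closely are given as a description, since they were picked for their r. Tpm1 was most like Myh4, the myosin heavy chain of type IIb fibres (r = 0.90, rho = 0.86), then Anapc5, a subunit of the anaphase-promoting complex (0.86), and Camk2a, a calmodulin-dependent kinase (0.86). Atp2a1 was most like Anapc5 (r = 0.87). Actn3 was most like Synm, an intermediate filament protein (r = 0.86), Jph1, which joins the T-tubule to the reticulum (0.82), and Mybpc2, the fast myosin-binding protein C (0.80). Pvalb had Camk2a (r = 0.81) and Rtn2 (0.81) next to Casq1, and Casq1 had Pgm1, phosphoglucomutase (0.79). Myoz1 was most like the creatine kinase gene Ckm (r = 0.84), the lactate dehydrogenase gene Ldha (0.84) and Rtn2 (0.82). Aldoa, an aldolase, followed Tnnt3 (r = 0.83) and Tnni2 (0.76), Tmod1 followed Tnnc2 (0.78), and the 3 genes closest to Mylpf were all outside the 10, Drap1 (0.78), Rtn4 (0.77) and Asb8 (0.76).

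On chromosome 7 lie 4 of the 10 genes, in the coordinates of GRCm38. Tnni2 (plus strand, chr7:142441808-142444410) and Tnnt3 (plus strand, chr7:142498836-142516009), the pair with the highest r, are 54425 bases apart with 1 gene, Lsp1, between them. Atp2a1 (minus strand, chr7:126445858-126463108) and Mylpf (plus strand, chr7:127208890-127214298) are 745781 bases apart, and their r of 0.48 was among the lowest of the 45. The others lie on chromosomes 1 (Casq1, chr1:172209894-172219868), 2 (Tnnc2, chr2:164777161-164779967), 9 (Tpm1, chr9:67022590-67049406), 14 (Myoz1, chr14:20649107-20656540), 15 (Pvalb, chr15:78191114-78206400) and 19 (Actn3, chr19:4861216-4877909), all on the minus strand. Genes on the other strand overlap Tnnt3 (Prr33), Tnnc2 (Ube2c), Atp2a1 (Rabep2) and Casq1 (Gm17224), and the strand setting of the counting is not given in the sources used here. Prr33 alone of these has a row, at 6.89 log2 CPM, and reached at most 0.827% of the CPM of Tnnt3. No 31-base word of the 3′ ends of their annotated transcripts occurred in a transcript of another gene, except 2 words of Tpm1 (0.0599% of its words) shared with Tpm2.

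RefSeq promoter entries were at hand for 6 of the 10 genes (Tnnc2, Mylpf, Atp2a1, Pvalb, Casq1 and Tpm1). The 250 bases before the start of Pvalb and Casq1 are shown because each of these genes had the other as its nearest gene in the table. Both are on the minus strand and written 5′ to 3′ (RefSeq, GRCm38.p6), and capitals mark the matches to the motifs searched, the E-box (CANNTG), which muscle bHLH factors such as MyoD bind, and the MEF2 consensus.
Pvalb, chr15:78206401-78206650: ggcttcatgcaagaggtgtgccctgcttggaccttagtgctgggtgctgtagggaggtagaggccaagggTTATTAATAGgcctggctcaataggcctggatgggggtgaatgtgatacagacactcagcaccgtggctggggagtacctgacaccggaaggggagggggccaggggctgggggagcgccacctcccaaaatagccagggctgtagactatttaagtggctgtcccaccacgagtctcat
Casq1, chr1:172219896-172220145: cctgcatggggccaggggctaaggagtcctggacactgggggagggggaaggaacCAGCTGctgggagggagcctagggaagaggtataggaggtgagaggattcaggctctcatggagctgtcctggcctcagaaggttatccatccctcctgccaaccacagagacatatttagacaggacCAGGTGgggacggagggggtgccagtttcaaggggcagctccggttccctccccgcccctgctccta
Pvalb held the MEF2 consensus at 180 to 171 bases before its start and no E-box in this window, whereas Casq1 held 2 E-boxes, at 195 to 190 and 67 to 62 bases before its start, and no MEF2 consensus. Pvalb has a second entry, not shown (chr15:78204238-78204487), with 1 E-box at 111 to 106 bases before that start and no MEF2 consensus. Over the first entry of each of the 6 genes, an E-box was found in 5, beside 66.2% of 32851 promoters of the same length on either strand, and the MEF2 consensus in 1, beside 2.92%. The CArG box, the site of serum response factor, was found in 0 of 6, beside 1.47%.

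All of the 10 genes but Pvalb have a slow-fibre counterpart of the same family, and the fast gene was above it in 25 of 25 mice in all 9 pairs. In contrast to the fast genes of these 9 pairs, their slow counterparts varied widely. Tnnt1 ran from 2.83 to 10.79 log2 CPM, Tnni1 from 1.29 to 8.86 and Tnnc1 from 2.17 to 9.71, so that the highest mouse had 257, 214 and 198 times the CPM of the lowest. Their within-group SD was 1.64, 1.58 and 1.60, beside 0.16, 0.11 and 0.13 for Tnnt3, Tnni2 and Tnnc2. Over the 9 pairs the slow SD ran from 0.39 (Actn2) to 1.64 (Tnnt1), and the ratio of highest to lowest CPM from 2.87 (Actn2) to 257. Not every gene of the fast and shared sarcomere list was steady. The within-group SD of Myl1, a myosin light chain gene of that list, lay inside this slow range. It was also the highest among the 60 most abundant genes.

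As a share of the tags of both genes, Tnnt1 made up 0.0377% in Thymol 20 (95% Clopper-Pearson interval 0.0289% to 0.0482%) and 9.64% in Thymol 6 (9.49% to 9.80%), with a median of 2.16% over the 25 mice. These intervals cover counting error only. Medians by group were 2.67% in Control and 1.78% in Thymol for Tnnt1, and the Control range, 0.858% to 6.86%, lay inside that of Thymol. The share was 0.808% at the median for Tnni1, 0.873% for Tnnc1, 1.90% for Myl2, 1.59% for Atp2a2, the pump of slow fibres and heart, 2.31% for Casq2 and 1.26% for Tpm3. Actn2 (11.9%) and Myoz2 (6.21%) had the largest median shares. Actn2 is made in all fibre types. Thymol 20 had the lowest share in 7 of the 9 pairs and Thymol 6 the highest in 6, and in those 6 pairs both extremes were Thymol mice. The lone position of Thymol 20 is seen from the next lowest Tnnt1 share, 0.48% in Thymol 3.

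The balance between the groups was not separable from this spread. The difference fast minus slow was 5.41 ± 0.97 in Control and 5.72 ± 2.08 in Thymol for Tnnt3 and Tnnt1, and 2.76 ± 0.57 and 2.61 ± 0.63 for Actn3 and Actn2 (SD, n = 11 and 14). Over the 9 pairs, Thymol minus Control of this difference ran from −0.15 (Actn3 and Actn2) to 0.34 (Tnni2 and Tnni1), with a median of 0.17 that became −0.13 without Thymol 20. None of the 9 slow genes was called in limma (unadjusted p from 0.49 for Actn2 to 0.844 for Atp2a2), and the 95% interval of the ratio for Tnnt1 reached from 0.355 to 1.83.

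Fast genes tended to be lower in the mice with more of their slow counterparts, and 4 of the 9 relations passed the adjusted test in limma. Pearson r was negative in all 9 pairs, from −0.28 (Tnnt3 and Tnnt1) to −0.73 (Myoz1 and Myoz2), with a median of −0.57, and rho was negative in all 9 as well. In limma, with the fast gene as predictor and Benjamini-Hochberg adjustment over 8828 genes, the slow gene fell as the fast one rose in 4 pairs. These were Myoz1 and Myoz2 (r = −0.73, rho = −0.68, adjusted p = 0.0022, with 1.19% of all genes falling as Myoz1 rose), Actn3 and Actn2 (r = −0.70, rho = −0.71, adjusted p = 0.00689, 1.22%), Atp2a1 and Atp2a2 (r = −0.57, rho = −0.58, adjusted p = 0.0415, 1.05%) and Mylpf and Myl2 (r = −0.62, rho = −0.47, adjusted p = 0.0482, 0.249%). The pairs of Tpm1 (r = −0.51, adjusted p = 0.0845, 1.33%), Casq1 (r = −0.61, adjusted p = 0.079, 0.0453%), Tnnc2 (r = −0.41, adjusted p = 0.403, 0.0113%), Tnnt3 (adjusted p = 0.589, 0.068%) and Tnni2 (adjusted p = 0.662) did not pass. The unadjusted permutation p of r was 0.00011 for Actn3, 0.00012 for Myoz1, 0.00137 for Mylpf, 0.00194 for Casq1, 0.00364 for Atp2a1 and 0.00988 for Tpm1. It was higher for Tnnc2 (0.0648), Tnni2 (0.233) and Tnnt3 (0.241). Without the 2 mice farthest from the median of the slow gene, r stayed negative in all 9 pairs (−0.69 to −0.36), and it was negative in all 9 within Control (median −0.43) and within Thymol (median −0.66). For Mylpf and Myl2 it was −0.62 with all mice and −0.38 without Thymol 20 and Thymol 6.

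**Figure D5:**
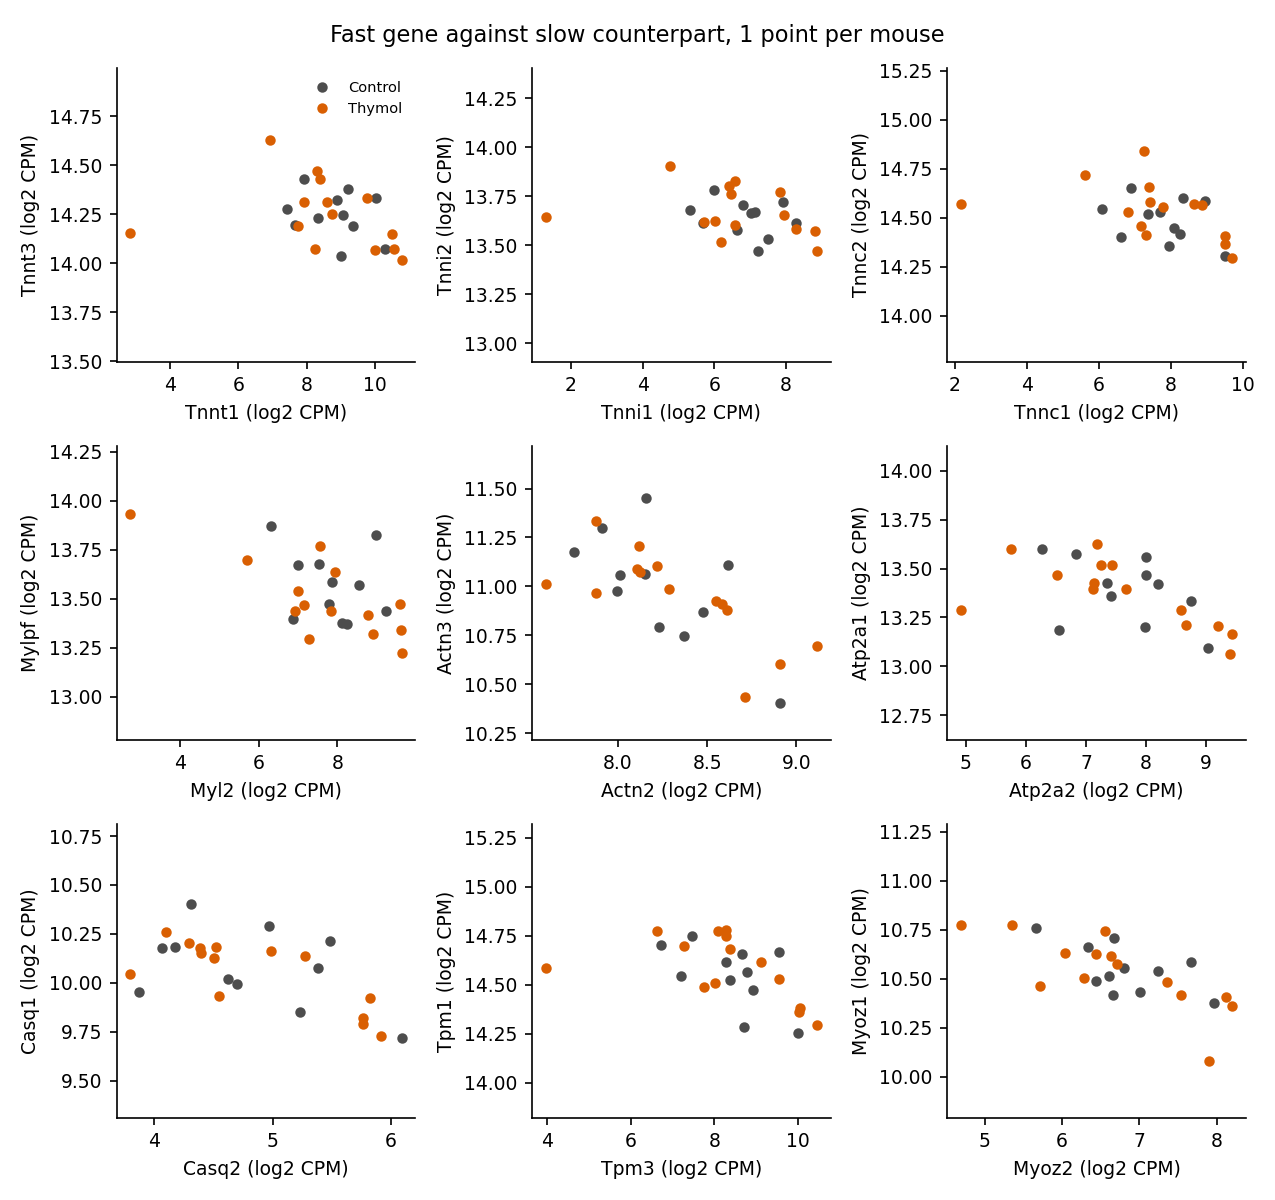
Level of each fast gene (vertical axes, log2 CPM, each spanning the same 1.5 log2 units) against its slow counterpart (horizontal axes, log2 CPM, on scales of their own), with 1 point per mouse, Control in grey and Thymol in orange. With group means removed, r was negative in all 9 panels (−0.28 to −0.73). It was weak for Tnnt3 and Tnni2 (both −0.28, permutation p = 0.241 and 0.233). Thymol 20 lies alone at the left in the 3 troponin panels and those of Myl2 and Tpm3.

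Fibre types are named after their myosin heavy chain, and 5 of the 10 genes passed the test of a positive relation to Myh4, 4 that of a negative one to Myh2 and 2 that of a negative one to Myh7. Myh4 (IIb) was positively related to all 10 (r from 0.47 for Mylpf to 0.90 for Tpm1, median 0.64). The relations that passed in limma were those with Tpm1 (1.7% of all genes rose with it), Atp2a1 (1.11%), Actn3 (0.782%), Myoz1 (1.36%) and Pvalb (0.816%). Myh2 (IIa) was negative with all 10 (r from −0.28 for Tnni2 to −0.70 for Mylpf, median −0.55). Its calls were for Mylpf (0.249% of all genes fell as it rose), Actn3 (1.22%), Pvalb (0.612%) and Myoz1 (1.19%). Myh7 (slow, type I) was negative with all 10 as well (median −0.43), with calls for Mylpf and Myoz1, whose shares are those just given. The unadjusted permutation p of r reached at most 0.018 for Myh4 (Mylpf), 0.235 for Myh2 and 0.24 for Myh7 (both Tnni2). Myh1 (IIx) was negative with 9, positive with Myoz1 (0.03), and reached no more than −0.33 (Actn3), with 0 calls. None of the 4 was called between Thymol and Control (limma unadjusted p from 0.518 for Myh7 to 0.988 for Myh2). Standard errors of the difference ran from 0.10 (Myh4) to 0.62 (Myh7, difference −0.40), so differences of that size are not excluded. Mean levels of the 4 ran from 15.04 log2 CPM for Myh4 to 7.99 for Myh7.

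Other measures moved with the 10 genes across the mice. The summed level of the 8 myofibre markers (Acta1, Ckm, Mb, Des, Tcap, Myh4, Eno3 and Pygm), none of which is among the 10, was positively related to all 10 genes (r from 0.63 to 0.90, highest for Tpm1). Of the 8, Myh4, the myosin of IIb fibres, had the highest mean level (15.04 log2 CPM). The sum therefore does not measure muscle content apart from fast fibres. With this level added to the treatment term the median r was 0.09, as given above, and with the summed level of the slow-fibre list added it was 0.49, with 45 of 45 pairs above 0. The library number of the label was positive with all 10 (r from 0.02 to 0.50, highest for Tnnc2), and adding it left a median of 0.64. The share of reads from the mitochondrial genome, 22.003% to 33.9% per mouse, was negative with 9 (strongest for Atp2a1, −0.51), and adding it left 0.68. Endothelial, smooth muscle, Schwann cell and leukocyte markers were negative with all 10 (medians of r −0.30, −0.33, −0.19 and −0.18), and adipocyte, denervation and red blood cell markers with 9 (medians −0.21, −0.24 and −0.15). Fibroblast markers were negative with 8 and tendon markers with 6, and Cdh15, the 1 satellite cell marker measured, was positive with all 10 (median 0.46). Between the groups, 0 marker genes of these lists were called in limma, beside 0% of all genes. An unadjusted p under 0.05 was found for 1 of 7 endothelial and 1 of 4 Schwann cell markers, both lower in Thymol. No marker of the other lists had one, and the share over all genes was 3.53%. The summed Schwann cell level was 75.2 to 249.8 CPM in Control and 68.3 to 173.4 CPM in Thymol. Depth was weakly related (r from −0.32 to 0.03). Quantile normalization, which gives each rank the same value in every library, left Tnnt3 with no variation at all, since it held the same rank in 25 of 25 mice, which leaves the 36 pairs given above. The other genes kept from 3 distinct values (Tnnc2, with 18 of 25 mice at the same one) to 15 (Casq1 and Myoz1). Tnni2, Pvalb and Tpm1 kept 4 each. When libraries were instead scaled to the reads outside the 10 genes, the median was 0.71, and outside the mitochondrial genome it was 0.53. What part these measures have in the co-variation was not tested further.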

How the data were processed

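Messenger RNA of gastrocnemius was measured in 25 SAMP8 mice (11 Control, 14 Thymol), grouped by the treatment in their labels. Per the labels and the study's methods, the authors made QuantSeq 3′ FWD libraries with PCR, mapped reads to GRCm38 with STAR 2.5.3, counted them with HTSeq 0.6.1, kept genes with 30 reads in at least 6 samples and scaled libraries by TMM. The deposited values are log2 CPM. Before the log2 was taken 2 reads had been added per count (for a library of mean size), and 0 reads stand at −1.90. Whole reads were recovered from their steps for 100.0% of the values (tolerance 0.1 read) and gave the depth. Any error of mapping, strand or scaling is carried in the values.

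Groups were compared with limma 3.58.1 (R 4.3.3), trended empirical Bayes, two-sided, with Benjamini-Hochberg adjustment over 8829 genes at 0.05. Limma was used because the deposited values are not counts. Correlations used group-centred values and 100000 permutations within groups. They covered 45 pairs of the 10 genes, 9 fast and slow pairs, 40 relations to myosins and 140 to other measures, and adjusted p-values come from limma over 8828 genes. Scripts were tested on simulated data. Numpy 2.4.6, pandas 2.3.3, scipy 1.17.1 and matplotlib 3.10.9 were used. Positions are from GENCODE M21 (GRCm38). Named genes are the 10, their slow counterparts, for each of the 10 the 3 genes with the highest r, the 2 genes of smallest p per direction in each of 4 lists, and 4 myosins, of which some are not reported here. The genes, lists and tests were chosen with earlier results of these data known. Alternatives are given in the closing section.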

Additional observations from a re-analysis of the deposited data

How the results depend on the processing

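The count of genes called between Thymol and Control was 0 for all genes, for the 10 genes and for the lists under each of 13 alternatives (quantile normalization, median centring, 3 scalings or pseudocounts, voom, 75% of genes with the highest mean, a replicate block, library number, no trend, robust moderation, sample weights, and without Control 18, Control 19 and Thymol 20) and in each of the 25 fits without 1 mouse (0 to 0). Under the 13 alternatives the differences of the 10 genes ran from −0.11 to 0.07, with a smallest unadjusted p of 0.157. Tnnt3 and Atp2a1 changed sign, with no call on either side. Tnnt3 (0.0007) became −0.0091 outside the mitochondrial genome, −0.00014 with library number, −0.031 with sample weights and −0.016 without the 3 libraries, and Atp2a1 became 0.017 with quantile normalization. Without 1 mouse, ranges that included both signs were −0.029 to 0.019 (Tnnt3), −0.043 to 0.0092 (Atp2a1), −0.033 to 0.026 (Pvalb) and −0.034 to 0.020 (Myoz1).

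The median r of the 45 pairs (0.63, jackknife standard error 0.12) was 0.050 with quantile normalization (36 pairs), 0.76 without the 3 libraries, 0.48 in Control and 0.77 in Thymol alone, and, with terms added after seeing the data, 0.49 with the slow-fibre level and 0.086 with the myofibre marker level. The cause was not tested, except that quantile normalization fixes each rank's value. Without 1 mouse it ran from 0.58 (without Thymol 6) to 0.73 (without Control 19). The median balance of fast and slow genes (0.17) ran from −0.13 (without Thymol 20) to 0.36 (without Control 23) and was −0.19 without the 3 libraries.

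The first number of the labels was shared by 16 mice of both groups. The 9 same-number pairs did not deviate together (mean r −0.002, 1 over 0.1). The labels do not say what the number stands for, and this check cannot tell whether it pairs mice. With the replicate block, 282 genes had an unadjusted p under 0.05, beside 312, and 0 were called. Counts of the slow counterparts went down to 20 reads, for Tnni1 in Thymol 20, a library of 8845982 reads. The lowest count among the 10 fast genes was 5951 reads (Casq1).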
